A study of Mus musculus with 6 samples.

Results

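The Hox and Pitx genes described here are the rows of the deposited table whose symbol is a member of the Hoxa, Hoxb, Hoxc or Hoxd cluster or a numbered Pitx gene, and that hold values. They number 32 of the 18180 genes used. Of 42 rows with such a symbol, 10 held no value and were not analysed here (Hoxa11, Hoxb13, Hoxc11, Hoxc12, Hoxc13, Hoxd1, Hoxd3, Hoxd11, Hoxd12 and Hoxd13). The 32 members were 10 of 11 Hoxa, 9 of 10 Hoxb, 6 of 9 Hoxc, 4 of 9 Hoxd and all 3 Pitx genes. Of these, 26 passed a filter of at least 1 normalised read in at least 3 libraries and were tested; Hoxb1, Hoxc8, Hoxc9, Hoxc10, Hoxd4 and Pitx3 did not.

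RNA was sequenced from sorted tumour cells of orthotopic pancreatic ductal adenocarcinoma (PDAC), grown in the pancreas of C57BL/6 mice and collected after about 10 to 14 days. The 6 libraries were titled KPSC (replicates 1 to 3) and KPC (replicates 1 to 3), names that the labels do not spell out. The genotype field gives a wild type for the libraries titled KPSC and a Setd2 knockout for those titled KPC, while the added letter in KPSC reads the other way, so titles name the groups here and the genotype is not used to read a direction. The labels give neither the other alleles, the Cre driver, the tumour line, the sort markers, the age of the mice nor whether each library had its own animal; p-values therefore measure the spread between these 6 samples, part of which may be technical.

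Hox genes encode transcription factors that give cells along the head-to-tail axis and the limbs their positional identity. Each cluster holds them in the order in which they are used along the body, low numbers toward the head and high numbers toward the tail. Their proteins bind DNA with partners of the TALE class (Pbx, Meis), and their clusters are switched on by retinoic acid, held active by Trithorax proteins and silenced by Polycomb proteins. Pitx proteins are homeobox factors of the bicoid type that pattern the pituitary, the hindlimb and the left-right axis. In adult tissues both families largely keep the pattern set in the embryo, and tumours can gain or lose single members.

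Pitx1 and Hoxa10 were read in every KPSC library and were nearly or wholly without reads in KPC libraries. Hoxa3, Hoxa6 and Hoxa7 were also higher in KPSC, and Hoxb4 was lower. In all, 5 members rose and 1 fell of the 26 tested, where 7.61% of all 16737 genes tested rose and 6.76% fell (limma on log2(value + 1), Benjamini-Hochberg adjusted p under 0.05 over all genes). The members called made up 23.1% of those tested, beside 14.4% of all genes in either direction. Hoxa10 passed the filter on low values only through its KPSC libraries, so it had to differ to be tested. The median log2 fold change of the 26 members, KPSC over KPC, was 0.83 (0.25 without KPSC replicate 3), and that of all genes tested was 0.01. Only 3 members were called higher when any 1 KPC replicate or KPSC replicate 2 was left out, and Hoxb4 was called on leaving out KPSC replicate 2 but no other library. Bulk libraries cannot tell fewer cells of a type from less RNA per cell. For a single gene an exact permutation test of 3 against 3 libraries cannot go below 0.1.

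**Figure D1:**
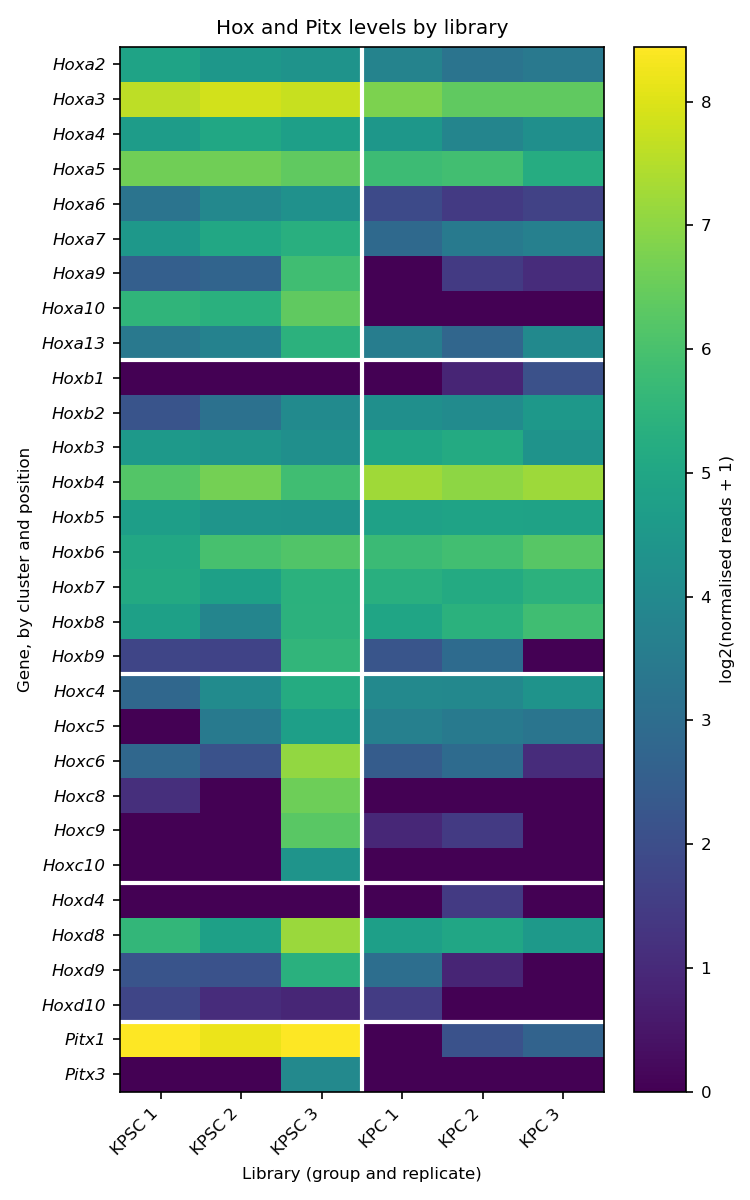
Level of 30 of the members in each library, as log2(normalised reads + 1) by colour; rows run by cluster and gene number, columns by group and replicate, and white lines separate clusters and groups. Pitx1 and Hoxa10 are bright in all 3 KPSC libraries and dark in all 3 KPC libraries. Hoxa9, Hoxb9, Hoxc6, Hoxc8, Hoxc9, Hoxc10 and Hoxd9 are bright in KPSC replicate 3 alone.

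The libraries differed in ways that touch these genes. They held 15215066 to 16995401 reads in KPSC and 14662710 to 17746969 in KPC. Epithelial tumour markers rose in KPSC for 6 of 10 genes, with summed levels of 118308 to 131030 normalised reads in KPSC and 59197 to 74925 in KPC; Epcam, an epithelial adhesion molecule, averaged 6075 ± 1244 in KPSC and 1844 ± 355 in KPC (SD, n = 3 each). Leukocyte markers fell for 4 of 11 genes, and at an unadjusted limma p under 0.05 for 7, with 0 higher. Their sums were 40958 to 45685 in KPSC and 41042 to 51644 in KPC. Lyz2 alone made up the larger part of these sums and overlapped between the groups (27606 ± 2276 in KPSC, 25115 ± 3406 in KPC). Every other leukocyte marker had a negative log2 fold change. Acinar enzyme genes, which a tumour cell sort should not retain, took 0.415% to 19.3% of the reads in KPSC and 1.01% to 7.68% in KPC, with 0 of 20 called by limma or edgeR and 0 at an unadjusted p under 0.05. Setd2, a histone H3 lysine 36 methyltransferase, stood at 859, 908 and 1042 normalised reads in KPSC replicates 1, 2 and 3 and at 1338, 1099 and 1046 in KPC (log2 fold change -0.31, SE 0.12, limma adjusted p = 0.148). Every KPSC library lay below every KPC library, narrowly, as for 17.2% of all genes tested. The gene was not called, which leaves the labels unchecked. KPSC replicate 3 stood apart from the other KPSC libraries and is set out with the genes it touches. The part of these differences in the values below was not tested.

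The Hoxa cluster, on the minus strand of chromosome 6 (coordinates are on GRCm38), was higher in KPSC as a whole. All 10 of its members had a positive log2 fold change, up to 5.75 and with a median of 1.16, where 50.6% of all genes tested had a positive one. For 8 of the 10, every KPSC library lay above every KPC library. Over all clusters this held for 9 of the 26 members tested, beside 17.6% of all genes, and the groups did not overlap in either direction for 12, beside 34.8% of all genes. The summed level of the cluster was 439.5, 496 and 589 normalised reads in KPSC replicates 1, 2 and 3 and 223, 187 and 189 in KPC, or 508 ± 75.5 in KPSC and 199 ± 20.3 in KPC (SD, n = 3 each). No Hoxa gene tested changed sign under the 18 alternative settings run. By the limma test 4 of the 10 rose.

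Hoxa10, a factor of the posterior body that patterns the uterus and vertebrae, showed the clearest contrast of the cluster. At chr6:52231197-52240854 it had 44.7, 40.2 and 82.0 normalised reads in KPSC replicates 1, 2 and 3 and 0 in each KPC library. All KPSC libraries held it and no KPC library had a read, so that Hoxa10 was at least 19.7-fold higher in KPSC against a floor of 3 reads per KPC library, a bound that covers counting error only. The fitted log2 fold change of 5.75 (SE 0.44, limma adjusted p = 0.000324) depends on the pseudocount. Its call held under all 18 alternatives. These reuse the same libraries, and Hoxa10 passed the main filter only through KPSC, so they add no separate support. The authors' deposited table gave an adjusted p of 3.69e-09.

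Hoxa3, which acts in the pharyngeal arches that form the thymus and parathyroids, was the Hox gene with the most reads in KPSC. At chr6:52169062-52213336 it had 192, 234 and 212 normalised reads in KPSC and 109, 82.4 and 81.9 in KPC. The groups did not overlap, and the lowest KPSC library lay well above the highest KPC library. Its log2 fold change was 1.22 (SE 0.19, limma adjusted p = 0.00562), with 1.15 to 1.36 on leaving out each library, called each time. The annotated interval of Hoxa3 spans Hoxa4, Hoxa5 and Hoxa6 on the same strand, so reads could be shared among these genes, and antisense RNAs overlap it.

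Hoxa6 and Hoxa7, thoracic-level members of the cluster, had fewer normalised reads than Hoxa3 in every library. Hoxa6, at chr6:52206288-52208722, had 8.45, 14.5 and 18.1 normalised reads in KPSC and 2.73, 1.68 and 2.16 in KPC, the KPC values being at or under 3 reads. All KPSC libraries lay above those of KPC, with a log2 fold change of 2.16 (SE 0.46, limma adjusted p = 0.0197). Hoxa7, at chr6:52214491-52221854, had 21.7, 32.4 and 38.9 in KPSC and 6.37, 10.1 and 11.9 in KPC, again without overlap. Its log2 fold change was 1.62 (SE 0.39, limma adjusted p = 0.0326). On leaving out 1 library, Hoxa6 was called only without KPSC replicate 1 (limma adjusted p = 0.0317) or KPSC replicate 3 (0.0368), with 0.0743 at most otherwise. Hoxa7 was called only without KPSC replicate 1 (0.0496), with 0.103 at most otherwise. Their log2 fold changes stayed at 1.94 to 2.45 for Hoxa6 and 1.38 to 1.84 for Hoxa7. Calls over all genes also fell, from 2406 to between 1245 and 1390, without any 1 library but KPSC replicate 3.

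Hoxa5, a factor of the developing lung and trachea at chr6:52201754-52204587, missed the threshold narrowly. It had 96.6, 96.1 and 82.9 normalised reads in KPSC and 53.7, 58.0 and 36.7 in KPC. The groups did not overlap, and the log2 fold change was 0.90 (SE 0.25, limma adjusted p = 0.0513). edgeR's quasi-likelihood test on the recovered reads gave 0.88 (adjusted p = 0.0481), and the authors' deposited table an adjusted p of 0.0268. Hoxa5 was called under 6 of the 18 alternatives, with log2 fold changes of 0.56 to 1.03. On leaving out 1 library it was called only without KPSC replicate 3 (limma adjusted p = 0.0432), with 0.1435 at most otherwise. Library size scaling gave a limma adjusted p of 0.189.

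Of the other Hoxa members, Hoxa2 and Hoxa4 also lay higher in every KPSC library without passing, the limma adjusted p being 0.0852 and 0.242. Hoxa2 averaged 23.1 ± 5.24 in KPSC and 10.3 ± 2.22 in KPC, a log2 fold change of 1.09, and Hoxa4 averaged 27.1 ± 3.72 in KPSC and 17.2 ± 3.73 in KPC, a log2 fold change of 0.64 (SD, n = 3 each). Hoxa13, at the tail end of the cluster and a factor of digits and hindgut, overlapped between the groups, with a log2 fold change of 0.73. That rested on KPSC replicate 3, which stood 2.64-fold above the next library (on value + 1). KPSC replicates 1 and 2 lay within the KPC range, and the log2 fold change without KPSC replicate 3 was 0.12. Hoxa9, a factor of blood progenitors, is among the genes that KPSC replicate 3 decides and is given with them. Within the cluster the 6 genes from Hoxa2 to Hoxa7 together held 372, 429 and 397 normalised reads in KPSC and 206, 174 and 160 in KPC.

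**Figure D2:**
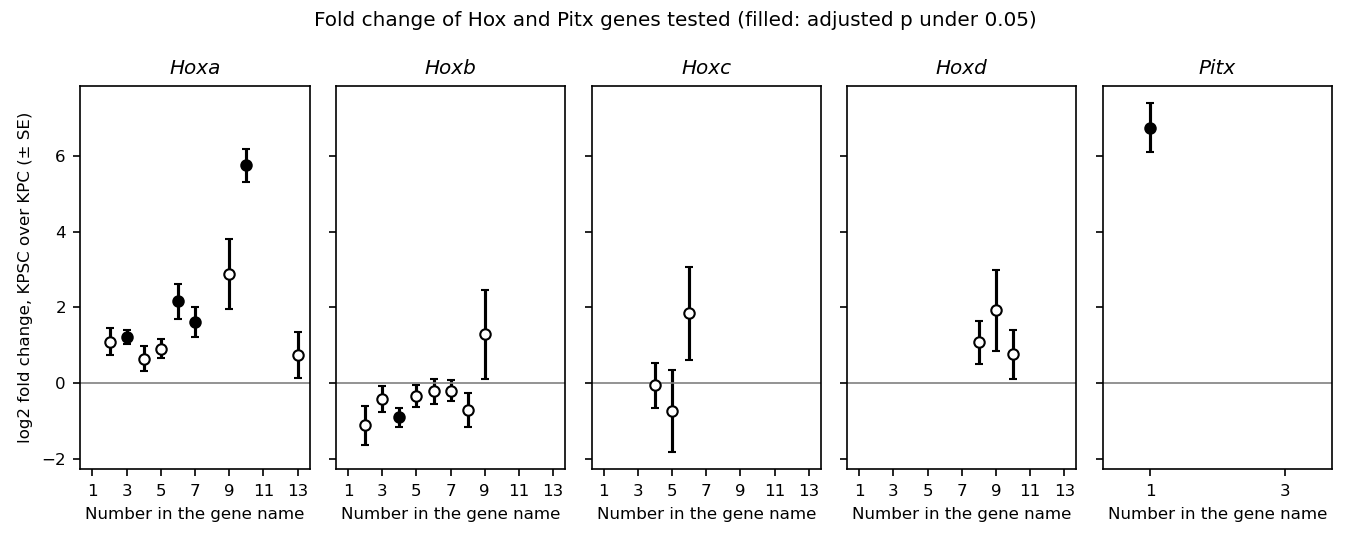
Log2 fold change, KPSC over KPC, with its standard error as a bar, for 24 of the members tested, by cluster and by the number in the gene name; filled points passed limma's adjusted p threshold of 0.05. All 9 Hoxa points drawn lie above 0, from 0.64 to 5.75, and 7 of the 8 Hoxb points lie below it.

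The promoters of the called Hox genes are shown because these genes lie side by side or in sister clusters, and those of Hoxa rose while Hoxb4 fell. The sequences are the 250 bases before and 50 bases after the transcript start, 5′ to 3′ on the gene's strand, from RefSeq on GRCm38.p6. Capitals mark TAAT on either strand, the core letters that homeodomains bind; matches are a description, not sites shown to be bound. Of the members, 17 had an entry in the promoter table, and Pitx1 had none. Hoxa10 has 2 starts, at chr6:52240805-52241104 (A) and chr6:52234890-52235189 (B), on the minus strand. The minus-strand windows of the others are chr6:52213018-52213317 (Hoxa3), chr6:52208623-52208922 (Hoxa6) and chr6:52218524-52218823 (Hoxa7), and the plus-strand window of Hoxb4 is chr11:96318017-96318316.
Hoxa10 A: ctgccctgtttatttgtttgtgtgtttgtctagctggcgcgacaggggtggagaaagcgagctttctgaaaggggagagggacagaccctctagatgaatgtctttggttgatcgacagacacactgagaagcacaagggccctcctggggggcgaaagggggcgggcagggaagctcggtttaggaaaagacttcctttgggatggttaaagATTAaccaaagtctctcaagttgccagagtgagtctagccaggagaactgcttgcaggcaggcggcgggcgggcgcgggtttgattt
Hoxa10 B: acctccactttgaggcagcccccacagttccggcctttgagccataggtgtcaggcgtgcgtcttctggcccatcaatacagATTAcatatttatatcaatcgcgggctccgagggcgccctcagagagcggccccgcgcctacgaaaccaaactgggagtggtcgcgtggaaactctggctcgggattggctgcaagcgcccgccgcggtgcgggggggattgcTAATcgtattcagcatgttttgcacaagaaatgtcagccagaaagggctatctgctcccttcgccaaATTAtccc
Hoxa3: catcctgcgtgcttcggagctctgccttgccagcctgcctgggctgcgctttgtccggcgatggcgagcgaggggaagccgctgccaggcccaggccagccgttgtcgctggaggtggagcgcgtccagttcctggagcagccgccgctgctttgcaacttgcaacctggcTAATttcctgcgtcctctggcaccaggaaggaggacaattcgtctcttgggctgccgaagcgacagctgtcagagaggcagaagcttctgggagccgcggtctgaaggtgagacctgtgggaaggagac
Hoxa6: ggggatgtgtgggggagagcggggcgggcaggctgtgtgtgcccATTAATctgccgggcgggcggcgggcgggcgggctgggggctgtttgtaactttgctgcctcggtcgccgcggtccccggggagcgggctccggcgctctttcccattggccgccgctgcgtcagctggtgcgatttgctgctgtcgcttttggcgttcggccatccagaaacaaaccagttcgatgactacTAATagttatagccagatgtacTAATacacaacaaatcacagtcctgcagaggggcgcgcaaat
Hoxa7: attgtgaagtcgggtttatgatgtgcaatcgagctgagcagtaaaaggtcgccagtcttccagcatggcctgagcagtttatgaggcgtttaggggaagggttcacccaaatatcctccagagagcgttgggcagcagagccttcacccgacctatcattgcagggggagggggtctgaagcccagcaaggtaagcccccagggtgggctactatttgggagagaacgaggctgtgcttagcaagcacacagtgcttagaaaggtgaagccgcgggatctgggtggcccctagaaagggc
Hoxb4: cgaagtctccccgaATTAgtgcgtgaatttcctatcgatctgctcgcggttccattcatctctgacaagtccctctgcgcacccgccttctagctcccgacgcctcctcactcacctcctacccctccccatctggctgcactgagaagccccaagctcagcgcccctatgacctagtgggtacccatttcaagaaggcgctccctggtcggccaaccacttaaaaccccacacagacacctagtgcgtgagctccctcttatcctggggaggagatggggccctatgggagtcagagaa

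TAAT, searched on both strands, was found in 14 of the 18 member promoters and in 58.0% of all 32851 promoters of the table. Hoxa6 held 4 matches, the start B of Hoxa10 held 3, and Hoxa7 held none. The letters TAATCC, bound by bicoid-type factors such as Pitx1 and containing TAAT, were in 0 of the 18 and in 7.06% of all promoters. TGATNNAT, a pattern of Pbx and Hox pairs, was in 3 of the 18, those of Hoxa2, Hoxb1 and Hoxb8, and in 8.85% of all. AGGTCA, the core of nuclear receptor elements including those for retinoic acid, was in 6 of the 18 and in 16.3% of all, Hoxb4 being the only called gene among them. CG dinucleotides, the target of DNA methylation, numbered 13.5 per member promoter at the median and 7 over all promoters; Hoxa10 B held 21, Hoxa10 A 12, Hoxa3 20, Hoxa6 26, Hoxa7 9 and Hoxb4 14. Hoxb4 lay within the range of the called Hoxa genes in both TAAT matches and CG count.

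The Hoxb cluster, on the plus strand at chr11:96271457-96368256, lay lower in KPSC for 7 of its 8 tested members, with a median log2 fold change of -0.39 and values from -1.13 to 1.28. Hoxb2, Hoxb4 and Hoxb5 lay lower in every KPSC library than in any KPC library, where 17.2% of all genes tested did so. The summed level of the cluster was 219, 255 and 308 normalised reads in KPSC and 350.2, 347 and 395 in KPC, without overlap. The 1 exception to the direction was Hoxb9, at the posterior end. In the 3 libraries where acinar genes took at most 5% of reads, Hoxb6, Hoxb7 and Hoxb8 turned positive (0.33, 0.14 and 0.26). KPSC replicate 3 was the only KPSC library among them, so acinar content and that library cannot be told apart there.

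Hoxb4, a factor known for expanding blood stem cells and the Hoxb gene with the most reads, fell. At chr11:96318267-96321638 it had 71.2, 102 and 57.0 normalised reads in KPSC and 150.1, 126 and 148 in KPC. Every KPSC library lay below every KPC library, with a log2 fold change of -0.91 (SE 0.25, limma adjusted p = 0.0471). The call was kept without KPSC replicate 2 (adjusted p = 0.0347) and lost without any other library (0.0574 without KPSC replicate 3, up to 0.14 without KPC replicate 3). The adjusted p was 0.0498 with edgeR on the recovered reads and 0.0137 in the authors' deposited table.

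Hoxb6, the other Hoxb gene averaging at least 50 normalised reads, overlapped between the groups. It stood at chr11:96292476-96301569 with 32.6, 62.6 and 70.0 in KPSC and 52.8, 58.0 and 75.5 in KPC (log2 fold change -0.23, SE 0.34, limma adjusted p = 0.721). Without KPSC replicate 1 its fold change was 0.11. Hoxb2, a hindbrain gene, averaged 9.0 ± 6.05 in KPSC and 18.3 ± 2.92 in KPC (SD, n = 3 each) and was called lower only without KPSC replicate 3 (-1.58, limma adjusted p = 0.0447; -1.13 and 0.196 with all libraries). Hoxb3, Hoxb5, Hoxb7 and Hoxb8 had log2 fold changes of -0.72 to -0.20, none called. Hoxb1, the gene at the anterior end, was at 0 in all KPSC libraries and at 0, 0.841 and 3.23 in KPC, where 3 reads correspond to 2.52 to 3.23 normalised reads.

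The balance of the 2 clusters can be read within each library, where no scaling between libraries enters. The ratio of the Hoxa sum to the Hoxb sum was 2.01, 1.95 and 1.91 in KPSC replicates 1, 2 and 3 and 0.636, 0.539 and 0.478 in KPC. KPSC libraries thus held more Hoxa than Hoxb reads and KPC libraries fewer, with mean ratios of 1.96 ± 0.05 in KPSC and 0.55 ± 0.08 in KPC (SD, n = 3 each). KPSC replicate 3, which differs from the other KPSC libraries for other Hox genes, had a ratio like theirs. The ratio alone does not show which of the clusters moved.

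**Figure D3:**
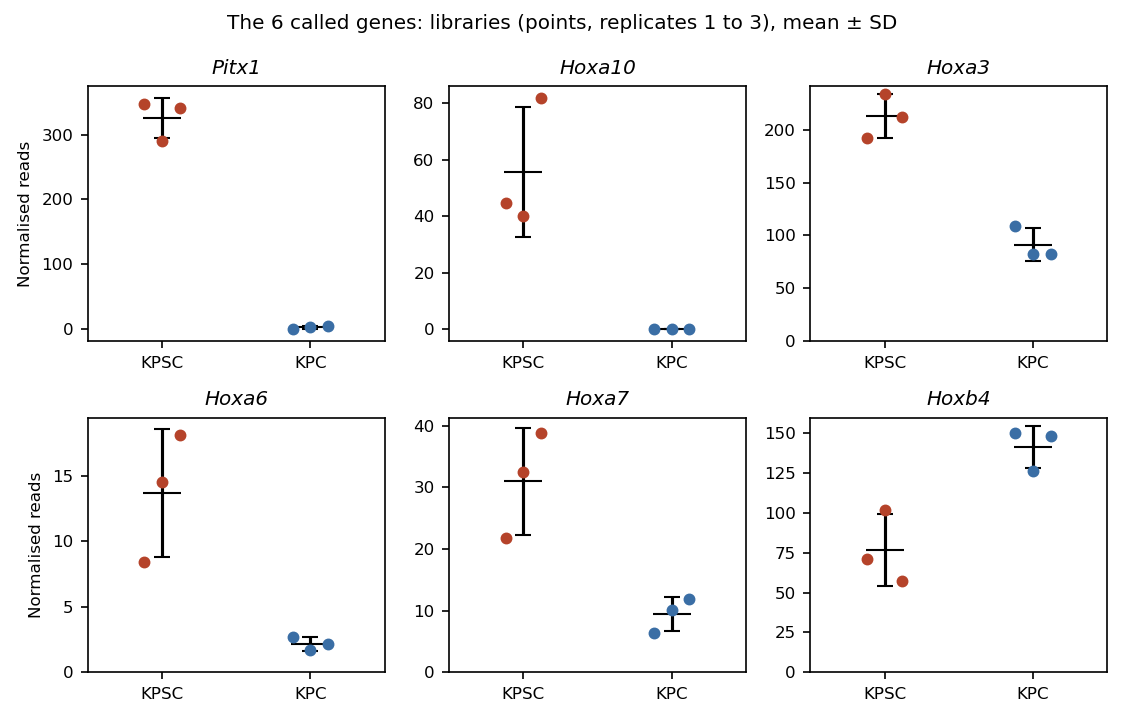
Normalised reads of the 6 called genes in each library (points, KPSC left of KPC, replicates 1 to 3 from left to right), with the group mean and SD as lines. For Pitx1, Hoxa10, Hoxa3, Hoxa6 and Hoxa7 all KPSC points lie above all KPC points, and for Hoxb4 all lie below.

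Pitx1, which sets hindlimb identity and acts in the pituitary, was the member with the most reads per kb in KPSC. At chr13:55825051-55836192 on the minus strand, it had 347, 290.5 and 341 normalised reads in KPSC replicates 1, 2 and 3 and 0, 3.36 and 5.39 in KPC. The 3 KPSC libraries were within a narrow range, 326 ± 30.9, and the KPC libraries stood near the floor of 3 reads, 2.92 ± 2.72 (SD, n = 3 each). The log2 fold change was 6.75 (SE 0.64, limma adjusted p = 0.000869). It was 5.95 to 7.29 on leaving out each library, with 6.71 without KPSC replicate 3. The order of Pitx1 and Hoxa10 by fold change depended on the tool, since Hoxa10 was at 0 in KPC: edgeR gave log2 fold changes of 6.79 for Pitx1 and 8.83 for Hoxa10, and DESeq2 gave 6.85 and 8.33. The authors' deposited table gave an adjusted p of 6.97e-36. Genes beside Pitx1 did not follow it: the 44 genes within 2 Mb that averaged at least 50 normalised reads had a median log2 fold change of 0.03, with 4 higher and 5 lower.

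Pitx3, a factor of lens, dopamine neurons and muscle (chr19:46135685-46148326), had 0, 0 and 14.7 normalised reads in KPSC and 0 in all KPC libraries, and was not tested. KPSC replicate 3 was the only library that held it.

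KPSC replicate 3 carried a set of members, mostly Hox genes, that the other libraries nearly lacked. By a rule chosen after the values were seen, a library at least 4-fold above the highest other one (on value + 1), it stood out for 9 of the 32 members, or 28.1%, beside 1.53% of all 18180 genes, and no other library stood out for any member. Among the 9 were Hoxa9, Hoxb9, Hoxc6, Hoxc8, Hoxc9, Hoxc10, Hoxd9 and Pitx3. They include all 4 genes at position 9, whose sum was 10.9, 11.2 and 219 normalised reads in KPSC replicates 1, 2 and 3 and 11.8, 10.9 and 1.08 in KPC. Of the 9, 5 passed the filter and were tested, and none was called by limma (the lowest adjusted p was 0.079, for Hoxa9). DESeq2 called Hoxa9 higher (log2 fold change 4.61, adjusted p = 0.00658), and the authors' deposited table gave it an adjusted p of 0.00452. Hoxa9 had 4.83, 5.59 and 57.0 normalised reads in KPSC and 0, 1.68 and 1.08 in KPC, so that it lay higher in every KPSC library but by far the most in KPSC replicate 3 (log2 fold change 2.88, and 1.81 without that library). Hoxb9 had 2.42, 2.23 and 45.8 in KPSC and 3.64, 6.73 and 0 in KPC, and overlapped between the groups.

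Within the Hoxc cluster (chr15:102966796-103036852) every member with values was highest in KPSC replicate 3. Position separated the members by their level in the other libraries, a boundary drawn after the values were seen. Hoxc6, with 6.04, 3.35 and 132 normalised reads in KPSC and 4.55, 6.73 and 1.08 in KPC, stood 17.2-fold above the highest other library in KPSC replicate 3. Hoxc8, a gene of brachial motor neurons, had 1.21, 0 and 95.0 in KPSC and 0 in KPC. Hoxc9, a gene of the thoracic level, had 0, 0 and 76.9 in KPSC and 0.91, 1.68 and 0 in KPC. Hoxc10, of lumbar motor neurons and hindlimb, had 0, 0 and 19.9 in KPSC and 0 in KPC. These 4 genes rested on KPSC replicate 3 almost entirely, with sums of 7.25, 3.35 and 324 in KPSC and 5.46, 8.41 and 1.08 in KPC. The anterior genes Hoxc4 and Hoxc5 were instead read in nearly every library, and overlapped between the groups. Their sums were 6.04, 25.7 and 61.3 in KPSC and 26.4, 24.4 and 28 in KPC. In KPSC replicate 3 they stood 1.78-fold and 2.10-fold above the highest other library (on value + 1). Their log2 fold changes of -0.06 and -0.73 turned positive in edgeR (0.28 and 0.29). The interval of Hoxc5 spans Hoxc6, Hoxc8, Hoxc9 and Hoxc10 on the same strand. The authors' deposited table holds no p-value for Hoxc6, Hoxc8 and Hoxc9.

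In the Hoxd cluster (chr2:74691924-74729160) Hoxd8 was the member with the most reads. It had 47.1, 26.8 and 143 normalised reads in KPSC and 26.4, 31.1 and 22.6 in KPC. KPSC replicate 3 was again highest, 3.0-fold above the next library, while KPSC replicate 2 lay within the KPC range (log2 fold change 1.07, SE 0.56, limma adjusted p = 0.259; without KPSC replicate 3 it was 0.41). Hoxd9 had 39.7 in KPSC replicate 3 and 0 to 7.28 in the other libraries. Hoxd10, which patterns the lumbar cord and limb, and Hoxd4 stood at or under 2.42 in every library, below the floor of 3 reads.

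The same library held RNA of skeletal muscle. The 6 muscle markers Acta1, Myh4, Ckm, Tnnt3, Mylpf and Pax7 summed to 35073 normalised reads in KPSC replicate 3, 0.239% of its reads, and to 29.1 to 47.1 in each other library. Acta1, the skeletal alpha-actin, had 2.42, 5.59 and 19875 normalised reads in KPSC and 0, 3.36 and 0 in KPC, and Myh4, a fast myosin, had 0, 0 and 4884 in KPSC and 0.91, 0 and 0 in KPC. In KPSC replicate 3 none of the 6 was at 0, while 1 to 3 of them were at 0 in each other library; of the 4 tested, 0 were called by limma or edgeR and 0 had an unadjusted p under 0.05. Fibroblast markers summed to 220851 there and to 112223 to 163228 in the other libraries. The collagen genes Col1a1, Col1a2 and Col3a1 made up most of the 220851, at 77259, 65456 and 66910. The other fibroblast markers were mixed, some being highest in that library and others lying below every KPC library there. Pericyte and smooth muscle markers summed to 12783 in KPSC replicate 3 and to 3117 to 5656 in the other libraries. Of the 12783, Des, which skeletal muscle also expresses, made up 7737, and the other 6 pericyte and smooth muscle markers summed to 5046 in KPSC replicate 3 and to 2878 to 5074 in the other libraries. Acinar genes, at 0.415% of reads, and islet genes, at a sum of 187 normalised reads beside 4268 to 20721 elsewhere, were lowest there. The part of these cells in the Hox and Pitx values of KPSC replicate 3 was not tested.

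**Figure D4:**
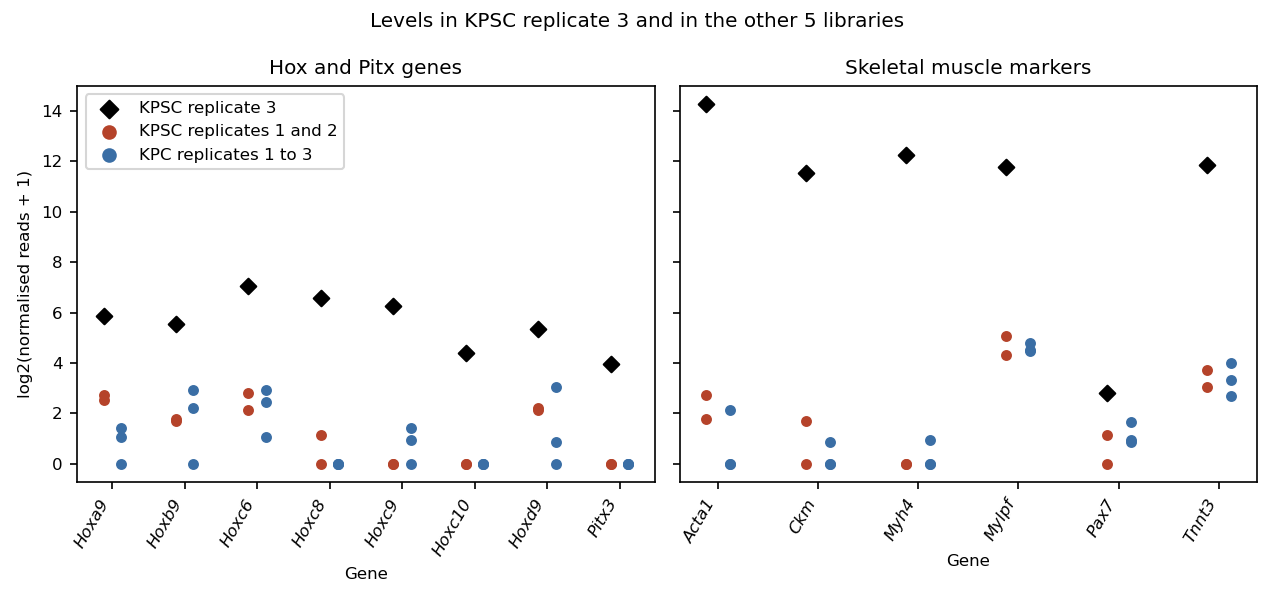
Log2(normalised reads + 1) of 8 members that stand at least 4-fold above all other libraries in KPSC replicate 3 (left) and of the 6 skeletal muscle markers (right), with KPSC replicate 3 as diamonds and the KPSC replicates 1 and 2 and KPC replicates 1 to 3 as dots. KPSC replicate 3 is the highest library for every gene drawn, by 17.2-fold for Hoxc6.

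Without KPSC replicate 3, Pitx1, Hoxa10, Hoxa3, Hoxa6 and Hoxa5 were called higher and Hoxb2 lower (limma), while Hoxa7 (log2 fold change 1.44, adjusted p = 0.0519; 1.62 with all libraries) and Hoxb4 (-0.72, adjusted p = 0.0574; -0.91 with all libraries) did not pass. Neither loss was particular to that library: Hoxa7 also did not pass without KPSC replicate 2 or any 1 KPC replicate, and Hoxb4 without KPSC replicate 1 or any 1 KPC replicate.

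Levels of different genes can be compared per kilobase of the gene length that the authors deposited. That length is not the span of the coordinates printed here: for Hoxa3 it was 6014 bases, far shorter than its interval. In KPSC the highest mean levels were 123 normalised reads per kilobase for Pitx1, 48.9 for Hoxa5, 35.4 for Hoxa3 and 29.9 for Hoxb4. In KPC they were 55.1 for Hoxb4, 31.6 for Hoxb6, 26.3 for Hoxa5 and 25.0 for Hoxb7, and Pitx1 stood at 1.10. Pitx1, Hoxa5 and Hoxa3 were separated from each other in every KPSC library, whereas Hoxa3 and Hoxb4 overlapped. In KPC the libraries of Hoxb4 lay above those of all other members, and those of Hoxb6, Hoxa5 and Hoxb7 overlapped.

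The TALE genes, whose proteins bind DNA together with Hox proteins, moved in both directions. Of 11 tested, 2 rose and 2 fell, with a list median of 0.11. Meis3 had 268, 298 and 244 normalised reads in KPSC and 116, 119 and 173 in KPC (log2 fold change 1.01, SE 0.19, limma adjusted p = 0.0141). Meis2 averaged 387 ± 8.30 in KPSC and 712 ± 107 in KPC (-0.87, adjusted p = 0.00475), and Pbx4 averaged 18.7 ± 3.36 in KPSC and 74.9 ± 7.65 in KPC (-1.95, adjusted p = 0.00395; SD, n = 3 each). In these 3 genes the groups did not overlap. Meis3 no longer passed when KPSC replicate 2 (adjusted p = 0.0602), KPC replicate 1 (0.0524) or KPC replicate 2 (0.0551) was left out.

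Of 18 genes of the retinoic acid pathway, 4 rose and 1 fell, with a median of 0.24. Aldh1a3, which makes retinoic acid, averaged 4341 ± 998 in KPSC and 1746 ± 505 in KPC (log2 fold change 1.33, SE 0.23, limma adjusted p = 0.00917). Cyp26b1, which degrades it, averaged 403 ± 80.2 in KPSC and 174 ± 21.4 in KPC (1.19, SE 0.18, adjusted p = 0.00503). Stra6, the receptor that takes up retinol, averaged 2089.6 ± 59.1 in KPSC and 3936 ± 461 in KPC (-0.91, SE 0.11, adjusted p = 0.00202; SD, n = 3 each). The other genes that rose were Crabp1, a retinoic acid binding protein, and Rarb, a retinoic acid receptor. An enzyme of synthesis and one of degradation were thus both higher, and the uptake receptor was lower. The 4 higher genes numbered 2 without KPC replicate 1 or 3 or KPSC replicate 1 or 2, 3 without KPC replicate 2 and 6 without KPSC replicate 3.

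Of 23 genes for Trithorax and Polycomb proteins, which keep Hox clusters active or silent, 1 was called, with a list median of 0.06. The gene that rose was Wdr5, a subunit shared by the Trithorax-type methyltransferases, with 1160.0 ± 60.7 in KPSC and 857 ± 39.4 in KPC (log2 fold change 0.44, SE 0.09, limma adjusted p = 0.0165; SD, n = 3 each). Wdr5 no longer passed when KPSC replicate 1 (adjusted p = 0.0591), KPC replicate 1 (0.0519) or KPC replicate 2 (0.0569) was left out. At an unadjusted p under 0.05, 5 of the 23 were higher and 2 lower, and edgeR called 1 higher and 0 lower.

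Among the RNAs transcribed within or beside the clusters, 1 of 9 tested rose. Halr1, a long non-coding RNA beyond the anterior end of the Hoxa cluster, had 133, 133 and 70.0 normalised reads in KPSC and 0, 1.68 and 1.08 in KPC. It was read in every KPSC library and lay under the floor of 3 reads in every KPC library (log2 fold change 5.93, SE 0.50, limma adjusted p = 0.000476). Hottip, the RNA at the Hoxa13 end, stood at 0 to 3.64 in all libraries. The antisense RNAs Hotairm1, Hoxaas2 and Hoxaas3 within the Hoxa cluster had log2 fold changes of 0.37, 0.42 and 0.56, none called; the sources used here do not say whether strand was used in counting, so reads of these RNAs and of the genes opposite them cannot be told apart.

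**Figure D5:**
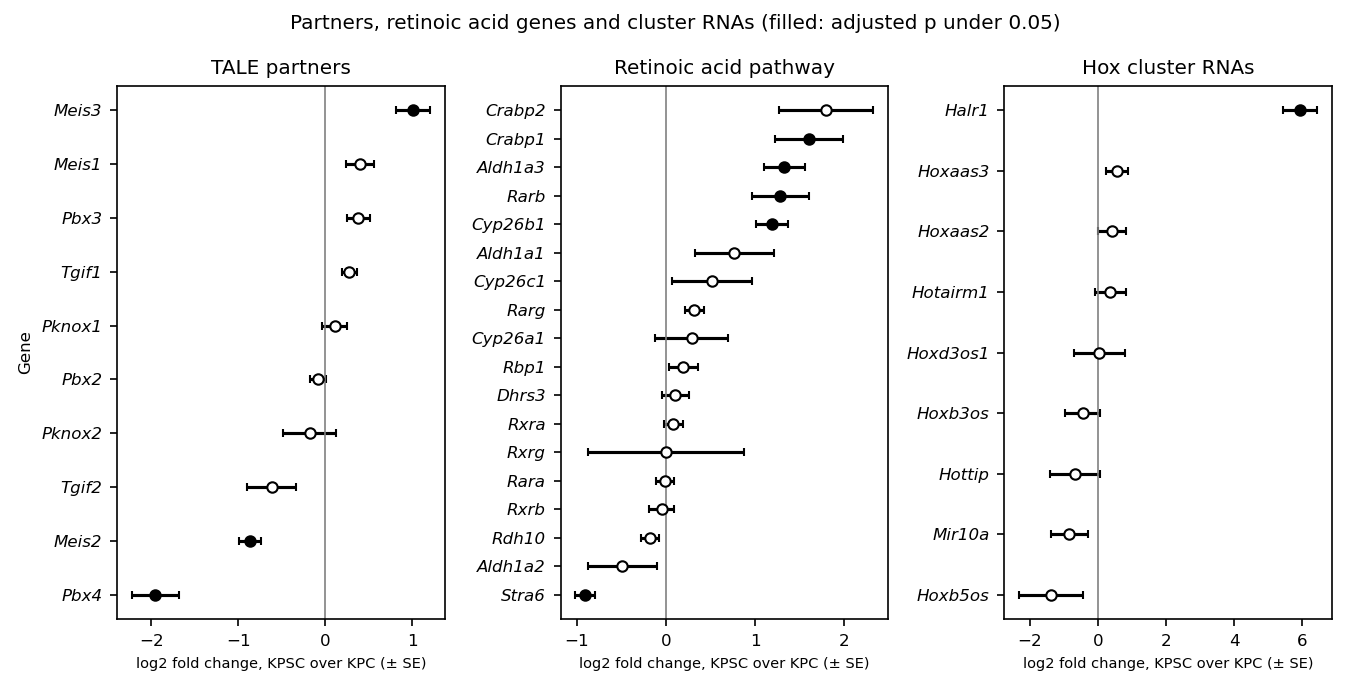
Log2 fold change, KPSC over KPC, with its standard error as a bar, for TALE genes, the retinoic acid pathway and the RNAs of the Hox clusters tested; filled points passed limma's adjusted p threshold of 0.05. Meis3 lies on the higher side and Meis2 and Pbx4 on the lower side, and Halr1 stands at 5.93.

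Genes outside the clusters are given for comparison, and whether they share a cause with the members was not tested. Of all genes tested, 14.4% were called in either direction. Over whole chromosomes, genes averaging at least 50 normalised reads had median log2 fold changes of 0.04 on chromosome 6 (Hoxa) and -0.0007 on 11 (Hoxb). They were 0.04 on chromosome 15 (Hoxc), 0.07 on 2 (Hoxd) and 0.13 on 19 (Pitx3). Within 2 Mb of the Hoxa cluster, 14 other genes averaging at least 50 normalised reads had a median log2 fold change of 0.17, with 3 called by limma, all higher, beside 1.16 for the cluster's members. Skap2, the next tested gene beyond Halr1, was among the 3 (0.43, SE 0.09, adjusted p = 0.0183). Around Hoxb the median was 0.01 over 69 genes, with 6 higher and 7 lower, and around Hoxc 0.07 over 46 genes, with 10 higher and 5 lower. Around Hoxd it was 0.29 over 23 genes, with 6 called, all higher, among them Lnpk, the gene beside the posterior end of the cluster (0.80, adjusted p = 0.0114). The 51 genes around Pitx3 had a median of 0.50, with 29 called, all higher, although Pitx3 itself had reads in KPSC replicate 3 alone.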

How the data were processed

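RNA of sorted PDAC tumour cells was sequenced in 3 KPSC and 3 KPC libraries after TruSeq preparation, per the labels' protocols. The deposited table holds a signal per gene and library that behaves as a read count divided by a size factor (0.828 to 1.19), whole within 0.01 in 100% of values; these are called normalised reads. The submitters' processing notes name mm10 and CASAVA 1.7; the aligner, counter and annotation were not given in the sources used here. The authors' p-values are printed with that origin named. Of 25450 rows, 7265 had no values and 5 were left out because their symbols had lost letters. IDs were matched to GENCODE M21 (GRCm38): 18176 matched and 4 did not, Hoxd4 among them, whose coordinates are the files' own. Recovered reads numbered 14662710 to 17746969 per library, so floors and intervals cover counting error only.

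The test was limma 3.58.1 (trend; R 4.3.3) on log2(value + 1), for genes at 1 or more in at least 3 libraries, two-sided, with Benjamini-Hochberg adjustment over all 16737 genes; the pseudocount understates changes of low genes. edgeR 4.0.16, DESeq2 1.42.0 and voom on recovered reads, other scalings, filters and pseudocounts, no trend, a replicate block, leaving out each library and a limit on acinar reads were alternatives. Scripts were tested on simulated data. Values per library are given for called members, Pitx genes and members averaging at least 50 in a group; each other list gives the 2 called genes of lowest adjusted p in each direction. The genes of KPSC replicate 3, Crabp1, Rarb and neighbouring genes were named after their values were seen, and the members and lists were chosen with earlier results of these data known. Every pair of libraries differed beyond sampling noise (chi-square over degrees of freedom of at least 36.7). Some genes that these rules name are not reported here. Motifs were counted in RefSeq promoters. Python 3.11.15 with pandas 2.3.3 and matplotlib 3.10.9 made tables and figures.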

Additional observations from a re-analysis of the deposited data

How the results depend on the processing

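Hoxa10, which passed the main filter only through its KPSC libraries, was called higher under all 18 alternatives, which reuse the same libraries. Hoxa3 and Pitx1 were called higher under all but the limit to the 3 libraries in which acinar genes took at most 5% of reads. Their log2 fold changes there were 1.15 for Hoxa3 and 7.36 for Pitx1. In that setting KPSC replicate 3 alone stands for KPSC and is assumed to vary like the others. Hoxa7 was called under 10 and Hoxb4 under 8 of 18, and Hoxa6 under 8 of the 15 in which it was tested. The members called higher, 5 in the main test, numbered 3 under library size scaling, 3 with the replicate block, 1 in the low-acinar libraries and from 3 to 5 when each library was left out. The members called lower, 1 in the main test, numbered 0 without a filter on low values, with a pseudocount of 5, without a mean-variance trend, with the replicate block and in the low-acinar libraries, and 0 to 1 on leaving out each library. The median log2 fold change of the members, 0.83, was 0.34 with voom and 0.29 with a minimum of 10, where 18 members were tested in place of 26, and 0.25 to 1.02 on leaving out each library, lowest without KPSC replicate 3. Over all genes 2406 were called, and 1272 under library size scaling, 1543 without the trend, 1014 with the block, 200 in the low-acinar libraries and 1245 to 3037 on leaving out each library, highest without KPSC replicate 3. Library size scaling shifted the median of all genes to -0.18 and the share of calls that were higher to 29.9%, beside 53.0%. Hoxc4 turned positive in edgeR (0.28), DESeq2 (0.26), voom (0.025) and the low-acinar libraries (1.24), with -0.65 to 0.54 on leaving out each library; Hoxc5 did so in edgeR (0.29), DESeq2 (0.25) and the low-acinar libraries (1.17), with -1.74 to 0.64. Hoxb6, Hoxb7 and Hoxb8 turned positive in the low-acinar libraries (0.33, 0.14 and 0.26), and Hoxb6 ranged from -0.43 to 0.11 on leaving out each library. Beyond these smaller sets of genes or libraries the cause was not tested. Same-numbered libraries did not deviate together (correlations of -0.04, -0.18 and -0.28), and differently numbered ones ranged from -0.20 to 0.25. With 3 libraries per group this check cannot exclude a shared batch or day. The block is therefore given as an alternative only. Genes under about 3 reads per library are beyond what this depth can compare.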

Other observations

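Homeobox genes outside the Hox and Pitx families also differed between the groups. Of 8 other paired-like homeobox genes tested, limma called Isx alone, and edgeR called 2 higher. Isx, an intestinal factor that controls vitamin A uptake, had 378, 285 and 525 normalised reads in KPSC replicates 1, 2 and 3 and 17.3, 18.5 and 18.3 in KPC (log2 fold change 4.34, SE 0.26, limma adjusted p = 0.000113). Of the ParaHox and Evx genes, 2 were tested. Cdx2, the intestinal ParaHox gene and a known activator of Hox genes, averaged 756 ± 96.8 in KPSC and 433 ± 43.2 in KPC (0.80, SE 0.13, limma adjusted p = 0.00669). Pdx1, the ParaHox gene of pancreas and duodenum, averaged 485 ± 22.3 in KPSC and 428 ± 69.0 in KPC (0.19, adjusted p = 0.401).

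Of 15 pancreas and gut homeobox genes tested, 2 rose (Isx and Cdx2) and 1 fell, and the list median was -0.43. At an unadjusted limma p under 0.05, 2 were higher and 4 lower. Of 11 limb and position genes that act with Pitx or Hox genes, Lefty1 alone rose. Lefty1, an inhibitor of Nodal signalling on the left side of the embryo, averaged 348 ± 122 in KPSC and 146 ± 15.8 in KPC (1.18, SE 0.27, limma adjusted p = 0.0275), a call that was kept without KPSC replicate 3 (adjusted p = 0.000614) and lost without any other library (0.0701 to 0.0966). Tbx4, the hindlimb factor that Pitx1 activates in the embryo, stood at 1.21, 0 and 7.77 normalised reads in KPSC and 5.46, 12.6 and 5.39 in KPC (-1.62, SE 0.82, adjusted p = 0.24).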
